A study of Mus musculus with 32 samples.

Results

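The beta tubulin genes of mouse keratinocytes were followed through organoid culture and in skin tissue. The members were the 6 genes Tubb2a, Tubb2b, Tubb3, Tubb4b, Tubb5 and Tubb6, found by their gene symbols among the 19970 gene names of 32 count files. The set was picked for Tubb3, whose level was seen to rise from unpassaged to early organoids and to be low in late ones, so for Tubb3 those differences are described here without a test. The other 5 isotypes were not picked for their own levels and were tested in every comparison, as was Tubb3 between tissues and between media. The remaining beta tubulin names were nearly empty: Tubb4a had 13 counts over all libraries, with at most 4 in any of them, and Tubb1 was listed in 3 files.

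Beta tubulin pairs with alpha tubulin, and the dimers assemble into microtubules, the hollow fibres that carry cargo, shape the cell and build the mitotic spindle. Mammals encode several beta tubulin isotypes that are nearly alike over most of the protein and differ chiefly in an acidic tail at the end. Tubb3 (class III) is known as a marker of neurons, Tubb2a and Tubb2b (class II) are also abundant in the nervous system, Tubb4b (class IVb) and Tubb5 (class I) are broadly expressed, and Tubb6 (class V) is found in many non-neuronal tissues at modest levels. Cells also tune tubulin mRNA by a feedback in which TTC5 recognises the first residues of a nascent tubulin chain and triggers decay of its mRNA.

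All samples came from skin of Bl/6 mice, with no age given in the labels, and RNA was counted from its 3′ ends by CEL-seq2. Organoids, which are clusters of epidermal cells grown in 3 dimensions, were harvested 7 days after culture or passage. Unpassaged organoids gave 1 library in each of 5 media: forskolin (an activator of adenylyl cyclase) alone, forskolin with Fgf10, forskolin with Fgf1, forskolin with a TgfB inhibitor, and the inhibitor alone. Early organoids (passages 7 to 12, at most 3 months in culture) gave 4, 2, 4 and 2 libraries in the last 4 of these media, named below as the Fgf10, Fgf1, forskolin-inhibitor and inhibitor media. Late organoids (passages 23 to 30, at most 6 months in culture) gave 6 libraries in the Fgf1 medium. Tissue gave 3 libraries of anagen (growing) hair follicles, 3 of anagen and telogen (resting) follicles together, called mixed follicles, and 3 of interfollicular epidermal cells sorted as Itga6+Sca1+, surface markers of basal keratinocytes. Library totals ran from 412582 to 3351435 counts, with a median of 1505354.

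The coding sequences show how close the members are and where Tubb3 differs from them. The first 24 coding bases (GENCODE M21, GRCm38) are shown because the encoded start of the protein is what the TTC5 feedback reads, with the first 12 bases in capitals. Tubb6 is left out of the printed set.
Tubb2a: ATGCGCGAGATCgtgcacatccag
Tubb2b: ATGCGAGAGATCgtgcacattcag
Tubb3: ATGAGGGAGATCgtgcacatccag
Tubb4b: ATGAGGGAGATCgtgcacctgcag
Tubb5: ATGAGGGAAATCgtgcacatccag
Over those 12 bases Tubb4b is the same as Tubb3, Tubb5 shares 11 bases with it, and Tubb2a and Tubb2b share 10 each. Among the printed members these base differences are silent, so the encoded residues there are the same. The whole coding sequences were 1335 to 1353 bases long, Tubb3 being the longest with 450 codons. Coding identity was 96.5% between Tubb2a and Tubb2b and 81.1% to 86.5% for every other pair of members. The last 75 coding bases are shown for the class II pair and Tubb3 because the tail is where isotypes part.
Tubb2a: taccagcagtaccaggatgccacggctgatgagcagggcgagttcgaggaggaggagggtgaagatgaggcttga
Tubb2b: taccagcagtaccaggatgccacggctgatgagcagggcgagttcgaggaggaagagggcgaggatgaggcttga
Tubb3: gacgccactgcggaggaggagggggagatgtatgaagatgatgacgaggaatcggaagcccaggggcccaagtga
The tail of Tubb3 was identical to that of another member at 54.7% to 57.3% of bases. Among pairs without Tubb3 the range was 58.7% (Tubb2b and Tubb6) to 78.7% (Tubb2a and Tubb5), apart from 96.0% between Tubb2a and Tubb2b. Counting from 3′ ends can confuse close copies. Of the 426 windows of 75 bases in the last 500 transcript bases, Tubb2a shared 141 with the pseudogene Tubb2a-ps2 or with an annotated Tubb2b transcript and Tubb4b shared 36 with its 2 pseudogenes, while the other 4 members shared 0 with any other Tubb transcript. The levels of Tubb2a and Tubb4b are uncertain to that extent, and so is that of Tubb2b, to which reads of Tubb2a may have been assigned.

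In GRCm38 (mm10) each member is an annotated protein-coding gene. Tubb2a (chr13:34074274-34078007) and Tubb2b (chr13:34126748-34130466) are neighbours on the minus strand, Tubb3 is at chr8:123411424-123422015 on the plus strand, Tubb4b at chr2:25222160-25224702 and Tubb5 at chr17:35833921-35838306 on the minus strand. RefSeq promoter windows (GRCm38.p6) were matched for 4 members and not for Tubb2b and Tubb6. The windows of Tubb2a (chr13:34078009-34078258, minus strand) and Tubb3 (chr8:123411303-123411423, plus strand) are shown because Tubb2a was the member whose group levels were most like those of Tubb3, as described below, and are trimmed to the bases before the annotated gene. Capitals mark GGGCGG (the GC box, either strand), TGACGTCA (the full cyclic AMP element) and TATAAA (the TATA box).
Tubb2a: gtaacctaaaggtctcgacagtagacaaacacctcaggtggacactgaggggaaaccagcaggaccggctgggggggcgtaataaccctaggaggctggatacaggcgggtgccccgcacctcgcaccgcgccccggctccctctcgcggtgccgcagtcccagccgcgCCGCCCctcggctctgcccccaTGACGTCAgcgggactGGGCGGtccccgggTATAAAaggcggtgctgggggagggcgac
Tubb3: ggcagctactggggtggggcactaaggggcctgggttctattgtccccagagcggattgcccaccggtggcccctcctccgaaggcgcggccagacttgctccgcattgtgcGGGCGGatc
Searches were run on both strands over the whole windows of 32851 promoters, of which 32.7% held GGGCGG, 1.55% held TGACGTCA and 12.4% held TATAAA. Tubb2a carried all 3 motifs, and the full cyclic AMP element also contains TGACG, the half-site, present in 17.8% of promoters. In the Tubb3 window GGGCGG was found 2 times, once in the bases printed, and TGACG was not found. Tubb4b held 5 copies of CCAAT (33.8% of promoters hold at least 1), and Tubb5 held 2.

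The 32 libraries fell into 11 source tables, sets of files that list exactly the same names, which the labels do not call batches. All unpassaged libraries and replicate 1 of early Fgf10 and Fgf1 organoids formed 1 table, and the other 10 early libraries formed another, so passaging and table are nearly confounded. Late libraries were spread over 4 tables and each epidermis library had its own. Anagen follicles, mixed follicles, epidermis, early organoids and late organoids shared no table with one another. In comparisons between them, group and table cannot be told apart. No 2 files of a group were alike within counting noise, with chi-square values per degree of freedom of 3.47 to 69.6. Basal keratinocyte genes (6 of 6 measured) summed to 15192 to 45013 CPM (a gene's count per 1000000 counts of its library, spike-ins left out) in organoid libraries. The same sum was 19890 to 23186 in sorted epidermis, 7037 to 12909.7 in mixed follicles and 336 to 2193 in anagen follicles. Markers of neurons, the cells Tubb3 is best known for, were near 0 throughout: the 11 genes summed to 0 to 16.6 CPM per library, all 11 were at 0 in the unpassaged inhibitor library, and Uchl1 was at 0 in every group. Nothing in the labels ties replicates to separate animals or cultures, and each p-value reflects only how these libraries varied, technical spread included. In bulk RNA, fewer cells of a type and less RNA per cell cannot be told apart.

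**Figure D1:**
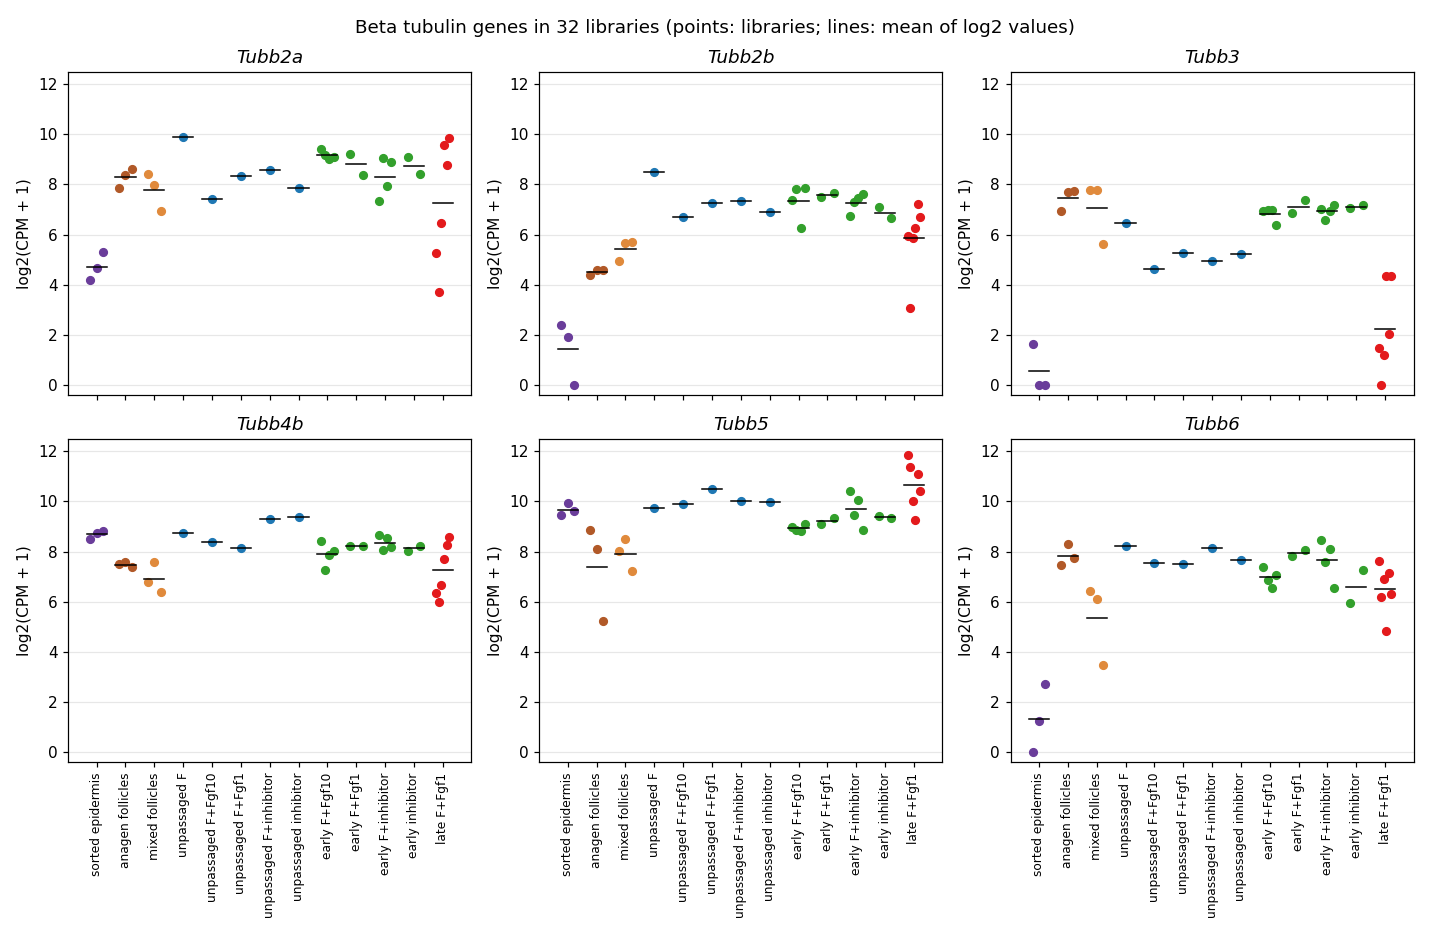
Levels of the 6 beta tubulin genes in 32 libraries, as log2(CPM + 1) on the y axis, by group on the x axis (F, forskolin). Each point is a library and each line the mean of the log2 values of a group. Tubb3 reaches 123 to 211 CPM in anagen follicles and 0 to 2.13 CPM in sorted epidermis.

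In tissue, Tubb3 was a follicle transcript and almost absent from sorted epidermis. It measured 123, 206 and 211 CPM in the 3 anagen libraries, 217, 217 and 48.4 CPM in the mixed ones, and 2.13, 0 and 0 CPM in sorted epidermis. Every follicle library was above every epidermis library, and mixed replicate 3 was the low one among follicles. In that library the 20 most abundant genes took 42.6% of counts, against 15.7% to 28.0% in the other follicle libraries, and the part this plays was not tested. The epidermis total for Tubb3 was 1 count. Epidermis replicates 2 and 3 did not list Tubb3, so their 0 CPM was filled in and not read from a row. A count of 0 allows up to 4.06 and 5.55 CPM in replicates 2 and 3. The summed level was 310 times higher in anagen follicles than in epidermis (95% interval 55.4 to 12242) and 313 times higher in mixed follicles (56.1 to 12375). These intervals cover counting error only.

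Tubb6, Tubb2a and Tubb2b had the same direction as Tubb3 in tissue. Tubb6 (plus strand, chr18:67390717-67402749) measured 174, 312 and 213 CPM in anagen follicles, 85.2, 68.6 and 10.1 CPM in mixed follicles, and 0, 1.35 and 5.55 CPM in epidermis. Its follicle libraries lay above all epidermis libraries, with mixed replicate 3 again the lowest. Epidermis replicate 1 did not list Tubb6, and the 0 CPM there was filled in. Tubb2a measured 232, 333 and 396 CPM in anagen follicles, 345, 254 and 123 CPM in mixed follicles and 17.03, 24.3 and 38.8 CPM in epidermis, without overlap. Tubb2b measured 19.9, 23.0 and 23.1 CPM in anagen, 30.1, 49.5 and 51.3 CPM in mixed follicles, and 4.26, 2.70 and 0 CPM in epidermis. Its 3 groups did not overlap.

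Tubb4b and Tubb5 took the opposite place. Scaled by library totals, Tubb4b measured 358, 433 and 450 CPM in epidermis (449.5 for replicate 3), above all follicle libraries, which ran from 163.7 to 188 CPM in anagen and from 81.6 to 192 CPM in mixed follicles. Tubb5 measured 713, 974 and 792 CPM in epidermis, also above every follicle library, where anagen gave 458, 271 and 36.4 CPM and mixed follicles 149 to 360.4 CPM. Anagen replicate 3, the lowest for Tubb5, also had the lowest sum of the mitosis genes among anagen libraries, 128 CPM against 959 and 1822. The part of dividing cells in that value was not tested.

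By edgeR (quasi-likelihood test, p adjusted by Benjamini-Hochberg over all genes tested), 4 of 6 members were lower in epidermis than in anagen follicles, where 34.2% of 10843 genes were called, 14.8% higher and 19.4% lower. The log2 fold changes were -8.70 ± 1.34 (SE) for Tubb3 (adjusted p = 0.000115), -7.18 ± 0.91 for Tubb6 (2.15e-05), -4.27 ± 1.197 for Tubb2a (0.0103) and -3.81 ± 1.00 for Tubb2b (0.00667). With libraries thinned to equal depth Tubb2b was no longer called, at -3.19 ± 1.16 (adjusted p = 0.0619). With 1 to 4 counts in epidermis, the fitted values of Tubb3, Tubb2b and Tubb6 depend on the prior count, and so do their SE. Here and below, the SE of an edgeR value is the size of its log2 fold change divided by the square root of the test's F statistic. It was worked back from the test and is not an error that edgeR itself estimates. Against mixed follicles the 4 genes were again lower, while 30.3% of genes were called, 11.9% higher and 18.5% lower. There the values were -8.80 ± 1.34 for Tubb3 (adjusted p = 0.000137), -5.42 ± 0.90 for Tubb6 (0.00027), -5.37 ± 0.98 for Tubb2b (0.000576) and -4.18 ± 1.19 for Tubb2a (0.0134).

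Tubb4b and Tubb5 did not pass edgeR's test in tissue. Tubb4b was 0.63 ± 0.59 higher on the log2 scale against anagen follicles (adjusted p = 0.436) and 0.66 ± 0.59 higher against mixed follicles (0.429). Tubb5 was 1.45 ± 0.61 higher against anagen (adjusted p = 0.0734) and 0.67 ± 0.60 higher against mixed follicles (0.426). DESeq2 called Tubb5 higher against anagen follicles, by 1.52 ± 0.59 (adjusted p = 0.0343), and without anagen replicate 1 edgeR did as well, with 2.01 ± 0.70 (0.0363). The folds use edgeR's TMM scaling, whose factors were 1.29 to 1.36 in epidermis and 0.411 to 0.790 in mixed follicles. On that scale Tubb4b in epidermis (263 to 341 CPM) overlapped anagen follicles (151 to 285 CPM) but not mixed follicles (154 to 243 CPM). Tubb5 in epidermis stayed above both. Scaling by library totals alone moved the median log2 fold change of all genes by 1.00 for epidermis against mixed follicles, and there Tubb4b was 1.69 higher (adjusted p = 0.0237).

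Between anagen and mixed follicles edgeR called 0 of 6 members, where 6.63% of genes were called, 1.21% higher and 5.42% lower. The count was 2 at an unadjusted p under 0.05, beside 2187 of 10843 genes, and DESeq2 called 0 members. Tubb6 was 1.76 ± 0.62 higher on the log2 scale in anagen follicles (adjusted p = 0.106) and Tubb2b differed by -1.57 ± 0.69 (0.208). Tubb3 differed by -0.10 ± 0.75. Markers of other skin cells also differed. The fibroblast list summed to 890 to 1922 CPM in mixed and 34.9 to 511 CPM in anagen follicles, and the Schwann cell list to 30.3 to 33.7 and 4.62 to 17.98 CPM. The melanocyte list had a median of 193 CPM in anagen and 109.7 CPM in mixed follicles, with overlapping ranges. Their part in these values was not tested.

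Alpha tubulin, the partner in the dimer, also split by gene in tissue. Of 5 alpha tubulin genes tested, 2 were higher in epidermis than in anagen follicles and 2 lower, with a list median of -1.32 on the log2 scale against -0.15 for all genes. Tuba1a, an isotype abundant in developing neurons, fell by 3.52 ± 0.56 (edgeR adjusted p = 0.000146), while Tuba1b rose by 2.34 ± 0.58 (0.00438) and Tuba1c by 1.63 ± 0.42 (0.00644). Of 19 microtubule-associated proteins tested, 5 were lower and 2 higher, with a median of -0.71, a share called close to the 34.2% of all genes. The neuronal stabilizer Mapt (tau) ran from 3.95 to 11.3 CPM in anagen follicles and from 0 to 2.13 CPM in epidermis, and Map6, which stabilizes microtubules against cold, fell by 3.07 ± 0.64 (adjusted p = 0.00139). Ttll7, which adds glutamates to beta tubulin tails, measured 21.7 to 41.8 CPM in anagen follicles and 0 to 4.26 CPM in epidermis , and fell by 5.09 ± 0.99 (adjusted p = 0.000803). Among 12 genes of tubulin modification and severing, 3 were lower and 0 higher in edgeR (4 at an unadjusted p under 0.05, and in DESeq2 also 3 lower and 0 higher). Over all genes, 4773 of 10843 had an unadjusted p under 0.05.

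In organoids Tubb3 was present in every unpassaged library, and in the 4 media with both stages it was higher in every early library. It measured 23.99 CPM in the unpassaged Fgf10 library, 37.9 in Fgf1, 29.9 in forskolin-inhibitor and 36.8 in inhibitor medium. Early libraries measured 123, 125, 126.4 and 81.7 CPM in Fgf10, 115 and 165 CPM in Fgf1, 128, 96.1, 120.2 and 144 CPM in forskolin-inhibitor and 133 and 143 CPM in inhibitor medium. All 12 early libraries lay above these 4 unpassaged libraries. The fifth unpassaged library, in forskolin alone and without an early partner, measured 88.1 CPM, inside the early range of 81.7 to 165 CPM. The mean was 4.75 times the unpassaged level in Fgf10, 3.70 times in Fgf1, 4.09 times in forskolin-inhibitor and 3.75 times in inhibitor medium. With medium as a term, the fitted log2 fold change was 2.14 ± 0.19, a description since Tubb3 was chosen for it.

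The source tables nearly coincide with passaging, so the pairs within 1 table were looked at separately. Early replicate 1 shared a table with the unpassaged library in 2 media. There Tubb3 was 5.13 times higher after passaging in Fgf10 and 3.04 times higher in Fgf1. With the source table as a term in the fit, the value was 1.98 ± 0.25.

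**Figure D2:**
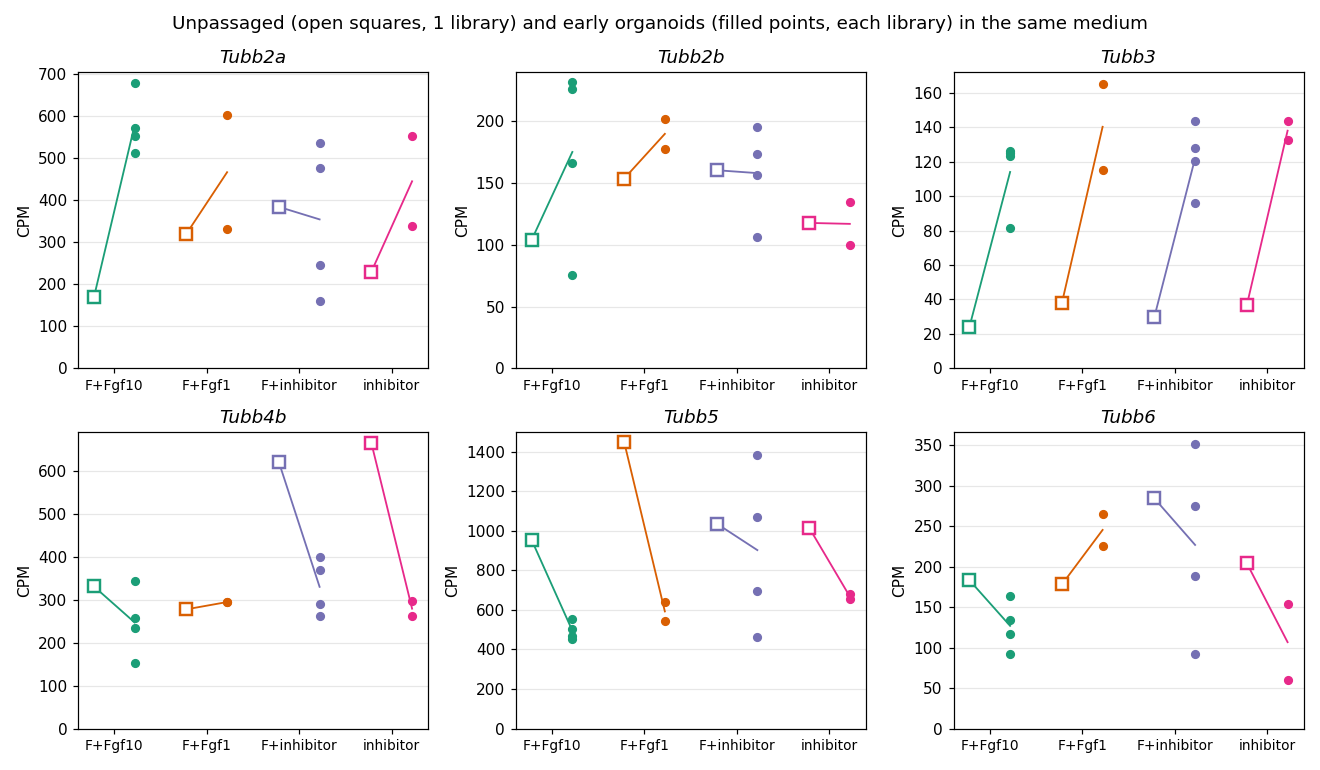
CPM (y axis) of the 6 genes in 4 media (x axis; F, forskolin): the open square is the unpassaged library, filled points are early libraries, and the line joins the unpassaged value to the early mean. Tubb3 rises in all 4 media, by 3.70 to 4.75 times, while Tubb5 has 10 of 12 early libraries below the unpassaged one.

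The other isotypes did not rise with Tubb3 past the test. Called by edgeR were 0 of 5 members, while 11.4% of 9984 genes were called, 5.1% higher and 6.28% lower. At an unadjusted p under 0.05 there were 3 members, beside 2833 of the 9984 genes. DESeq2 called 2 of these 3 members, Tubb4b and Tubb5, both lower. Scaled by library totals alone, edgeR also called these 2, with -0.66 (adjusted p = 0.0406) for Tubb4b and -0.77 (0.0284) for Tubb5. Tubb5, the broad class I isotype, measured 953, 1448, 1036 and 1015 CPM in unpassaged Fgf10, Fgf1, forskolin-inhibitor and inhibitor libraries. Early libraries measured 450.3 to 552 CPM in Fgf10, 545 and 639 CPM in Fgf1, 461 to 1381 CPM in forskolin-inhibitor and 682 and 652 CPM in inhibitor medium. Only 2 of 12 early libraries, both in forskolin-inhibitor medium, exceeded their unpassaged library. The log2 fold change was -0.65 ± 0.21 (edgeR adjusted p = 0.0525), just short of the threshold. With the source table as a term it was -0.90 ± 0.33 (adjusted p = 0.383).

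Tubb4b stood lower in every early library of the inhibitor media than in the unpassaged one. It measured 621 and 666 CPM in unpassaged forskolin-inhibitor and inhibitor libraries, against 263 to 399 CPM and 262 to 297 CPM in early ones, with no overlap. In Fgf10 the unpassaged 331 CPM lay within the early range of 153 to 344 CPM, and in Fgf1 278 CPM stood against 294 and 296 CPM. The fold change was -0.54 ± 0.18 on the log2 scale (edgeR adjusted p = 0.0625). With the source table as a term it was -0.14 ± 0.26. In the inhibitor media the 2 stages share no source table, so passaging and table cannot be told apart there. Within 1 table, Tubb4b after passaging was 1.04 times its unpassaged level in Fgf10 and 1.06 times in Fgf1. Whether passaging acts differently by medium was tested by an interaction of FGF against inhibitor media, to which the same limit applies. Of the members other than Tubb3, edgeR called 0 (0.03% of genes) and DESeq2 called 0. At an unadjusted p under 0.05 there was 1, beside 681 of 9984 genes. That member was Tubb4b, with a difference of 0.80 ± 0.33 (edgeR adjusted p = 0.711). For Tubb3 the difference was 0.03 ± 0.36, a description, since Tubb3 was picked for its rise in these same libraries.

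Tubb2a came closest to the direction of Tubb3 but not in every medium. It measured 169 CPM in the unpassaged Fgf10 library and 511 to 679 CPM in the early ones, and 229.5 against 337 and 552 CPM in the inhibitor medium. In forskolin-inhibitor medium the unpassaged 384 CPM lay inside the early range of 159 to 535 CPM, and 10 of 12 early libraries in all were above their unpassaged library. The log2 fold change was 0.83 ± 0.34 (edgeR adjusted p = 0.11). Tubb2b changed by 0.39 ± 0.27 (adjusted p = 0.357) with 8 of 12 early libraries above, and Tubb6 by -0.25 ± 0.27 (0.572) with 3 of 12 above.

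Among the early libraries, the lowest and highest Tubb2a levels stood beside unlike levels of the mitosis genes. The forskolin-inhibitor replicate with the lowest Tubb2a, 159 CPM, had the highest mitosis sum, 2948 CPM, and the Fgf10 replicate with the highest, 679 CPM, had 599 CPM. Tubb5 was highest, 1381 CPM, in the first of these 2 libraries. Tubb3 in the same 2 libraries was 128 and 123 CPM. The part of dividing cells in Tubb2a and Tubb5 was not tested.

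Of the lists of other microtubule genes, 9 genes passed edgeR's test with passaging, where 11.4% of all genes did. Tested in these lists were 5 alpha tubulin, 2 other tubulin, 6 folding cofactor, 6 prefoldin, 8 chaperonin and 2 stathmin genes. The others were 17 microtubule-associated, 11 tubulin modification and severing and 15 mitosis genes, so the 9 stand near the share of all genes. None of the 9 was called with the source table as a term (adjusted p 0.433 to 0.877) or with the replicate block (0.156 to 0.469), though all 9 kept their direction. Of 17 microtubule-associated proteins tested, 4 were higher and 0 lower in edgeR (median 0.21 against 0.01 for all genes, and DESeq2 also called 4 higher and 0 lower). Map6 rose by 1.02 ± 0.26 (adjusted p = 0.0188), the plus-end protein Mapre2 by 0.75 ± 0.20 (0.0261) and the plus-end linker Clip1 by 0.77 ± 0.22 (0.0289). Among 5 alpha tubulin genes 1 rose, Tuba4a, by 0.52 ± 0.16 (adjusted p = 0.0465). Of 6 prefoldin genes, which hand new tubulin to the chaperonin, Pfdn2 rose by 0.54 ± 0.17 (adjusted p = 0.0462), and of 6 folding cofactors Tbca, which binds free beta tubulin, fell by 0.49 ± 0.15 (0.0415). Ttc5, the gene of the tubulin feedback, fell by 0.76 ± 0.23 (adjusted p = 0.0414), from 16.9 to 33.4 CPM in unpassaged libraries to 8.63 to 21.7 CPM in early ones, and these ranges overlap. The stathmin Stmn2, a neuronal destabilizer of microtubules, fell by 2.48 ± 0.70 (adjusted p = 0.0328), opposite to Tubb3, at 0 to 14.4 CPM in unpassaged and 0 to 13.95 CPM in early libraries. Of 15 mitosis genes edgeR called 0, with 1 at an unadjusted p under 0.05 and 0 in DESeq2.

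Media within early organoids moved no member past the test. For Fgf1 against Fgf10 edgeR called 0 of 6 members, as it called 0% of genes. At an unadjusted p under 0.05 there were 0 members, beside 331 of 9919 genes, and DESeq2 called 0 members. Tubb3 differed by 0.21 ± 0.66 on the log2 scale, and Tubb6 by 0.86 ± 0.53, its Fgf1 libraries (225 and 265 CPM) both above the Fgf10 range of 92.3 to 164 CPM. For forskolin-inhibitor against Fgf10 medium the member counts were again 0 in edgeR, at the unadjusted threshold and in DESeq2. There edgeR called 0.575% of genes, 0.262% higher and 0.313% lower, and 718 of 9919 genes were under the unadjusted threshold. Tubb3 differed by -0.03 ± 0.54 and Tubb5 by 0.71 ± 0.42 (edgeR adjusted p = 0.852). For forskolin added to the inhibitor all these member counts were 0 and 0% of genes were called, with 621 of 9919 under the unadjusted threshold. Tubb3 differed there by -0.23 ± 0.66 and Tubb6 by 1.00 ± 0.58 (edgeR adjusted p = 0.864). The standard errors leave room for changes of about that size.

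In late organoids Tubb3 had nearly vanished. Over the 6 late libraries the lowest value was 0, the median 2.45 and the highest 19.5 CPM, from 0 to 20 counts each. Replicates 4 and 6, at 19.5 and 19.0 CPM, were the high ones, and all 6 lay below both early Fgf1 libraries (115 and 165 CPM) and below every unpassaged library. The summed late level was 0.0454 of the early Fgf1 level (95% counting interval 0.0325 to 0.0621). The fitted log2 fold change was -4.20 ± 0.64, again a description. In the order of group means for Tubb3, anagen follicles (180.1 CPM), mixed follicles (161) and the 4 early groups (140.3, 138, 122 and 114) had neighbours with overlapping ranges. Below them came unpassaged forskolin alone (88.1 CPM, overlapping early Fgf10), the other 4 unpassaged libraries, which are single values, late organoids (7.46 CPM) and epidermis (0.709 CPM), whose range overlaps that of late organoids.

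The other isotypes kept counts in every late library. Tubb2b, over the 6 late libraries, had a lowest value of 7.27, a median of 68.9 and a highest of 150.1 CPM, all below the early Fgf1 values of 178 and 202 CPM. Tubb6 had 27.3, 98.0 and 198 CPM, all below 225 and 265 CPM. Tubb2a spread from 12.1 through 261 to 931 CPM and Tubb4b from 63.0 through 154 to 386 CPM, both across their early values (602 and 331, and 296 and 294 CPM). Tubb5 ran the other way, with 614, 1795 and 3731 CPM. Only its lowest late library lay within the early pair of 545 and 639 CPM, and the others were above it.

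Called by edgeR between late and early Fgf1 organoids were 0 of 5 members, with 6.72% of 9919 genes called, 3% higher and 3.72% lower. At an unadjusted p under 0.05 there were 3 members, beside 2436 of the 9919 genes. DESeq2 called 1 member, Tubb5, and 1117 genes in all. The edgeR log2 fold changes were 1.61 ± 0.53 for Tubb5 (adjusted p = 0.0741), -1.33 ± 0.58 for Tubb2b (0.162) and -1.30 ± 0.49 for Tubb6 (0.108). Tubb4b differed by -0.62 ± 0.54 (adjusted p = 0.5) and Tubb2a by -0.27 ± 0.98 (0.903).

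The late libraries were not alike. Krt10, a keratin of differentiating suprabasal cells, measured 12.6, 2.42 and 26.2 CPM in late replicates 1 to 3 and 5911, 941 and 5285 CPM in replicates 4 to 6. Tubb2a followed the same split, at 37.7, 12.1 and 87.0 CPM in the first 3 and 769, 435 and 931 CPM in the others, as did Tubb4b (80.9, 63.0 and 101, then 207, 306 and 386 CPM). Tubb2b was split as well (61.1, 7.27 and 57.2, then 76.8, 150.1 and 102.8 CPM). So was Tubb3, at low counts (1.80, 0 and 1.28, then 19.5, 3.09 and 19.0 CPM). The mitosis genes summed to 6105, 4881, 745, 535, 1043 and 853 CPM over replicates 1 to 6, and Tubb5 measured 3731, 2642, 1045, 614, 2216 and 1374 CPM, with the same order of libraries from high to low. The part of differentiated or dividing cells in these levels was not tested.

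The member counts depended on which late libraries entered. With only replicates 1 to 3, which have source tables of their own (a choice made after seeing the data), edgeR called 4 of 5 members, while 20.8% of 9792 genes were called. This split is also the one that Tubb2a, Tubb2b, Tubb3 and Tubb4b themselves show, so their values below are not independent of it. Tubb2a fell by 3.45 (adjusted p = 0.00196), Tubb2b by 2.32 (0.0102) and Tubb4b by 2.05 (0.000608), and Tubb5 rose by 1.84 (0.0135) on the log2 scale. With only replicates 4 to 6 it called 0 of 5, while 9.36% of genes were called, and Tubb2a turned in direction (0.68, adjusted p = 0.406), as did Tubb4b (0.10, 0.874). Tubb3 was at -6.99 ± 0.45 with only replicates 1 to 3 and -3.22 ± 0.41 with only replicates 4 to 6. Leaving out late replicate 3 or late replicate 4 made Tubb5 the 1 member called.

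Of the lists, late and early organoids differed in 1 of 17 microtubule-associated proteins in edgeR. Mapre2 fell by 1.33 ± 0.27 (adjusted p = 0.00894), from 53.5 and 75.6 CPM in the early pair to 21.8 to 33.8 CPM in late libraries, with no overlap. It had risen with passaging before. In alpha tubulin edgeR called 0 of 5 genes, with 1 at an unadjusted p under 0.05 and 0 in DESeq2, and in mitosis 0 of 15, with 0 and 0. The Merkel cell list summed to 35.9 to 230.3 CPM in late libraries and at most 18.5 CPM elsewhere, with its defining gene Atoh1 at 0 in all 6, and the fibroblast list to 204 to 1116 CPM against 276 and 540.0 CPM in the early pair. The part of either in the tubulin levels was not tested.

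**Figure D3:**
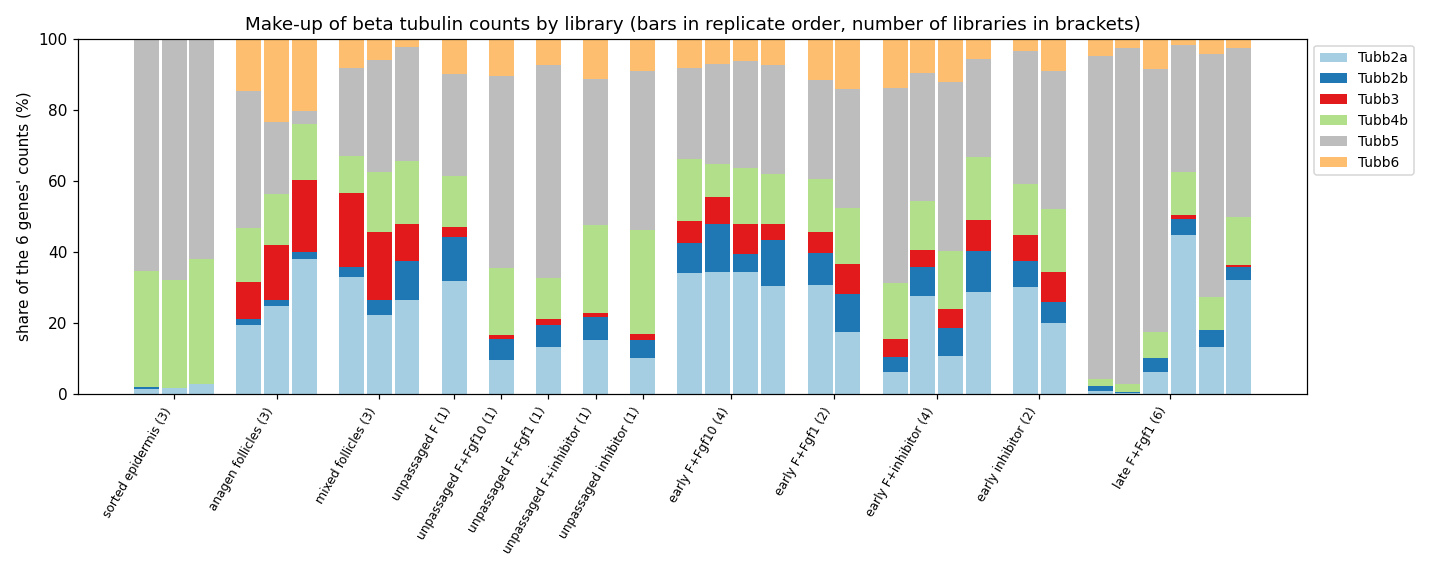
Share of the counts of the 6 genes (y axis, percent) taken by each gene in each library, grouped on the x axis. Tubb5 and Tubb4b make up nearly all of the epidermis bars, and Tubb3 takes at most 1.14% in late organoids against 4.51% to 8.71% in early ones.

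The make-up of the beta tubulin counts differed between groups, with the limit that 3′ counts of different genes need not reflect equal capture. In sorted epidermis, Tubb5 took 61.6% to 67.9% and Tubb4b 30.2% to 34.96%, leaving at most 3.02% for Tubb2a and less for each of the others. In anagen follicles Tubb3 took 10.3% to 20.2% and Tubb6 14.6% to 23.4%. Tubb3 took 1.19% to 2.98% in unpassaged, 4.51% to 8.71% in early and 0 to 1.14% in late organoids. Late replicate 2 had 94.5% of its beta tubulin counts in Tubb5, and late replicate 4 had 35.8% in Tubb5 and 44.9% in Tubb2a. The summed level of the 6 genes ran from 1409 to 4110 CPM in late organoids, above the early Fgf1 libraries (1896 and 1961 CPM) in 4 of 6.

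Against sorted epidermis, Tubb6 and Tubb2b were higher in every early Fgf1 and late library, and Tubb2a in both early and 4 of 6 late libraries. Late replicate 2 had 12.1 CPM of Tubb2a, below all 3 epidermis libraries, and late replicate 1 had 37.7 CPM, within their range of 17.03 to 38.8 CPM. Early and late comparisons share the 3 epidermis libraries, so their values are set side by side and not counted as separate support. Called higher were 3 of 5 members in early Fgf1 organoids (19.4% of genes called, 10.1% higher and 9.29% lower) and 3 of 5 in late organoids (21.8% of genes called, 12.2% higher and 9.53% lower). Tubb6 was 6.99 ± 0.93 higher on the log2 scale in early organoids (edgeR adjusted p = 0.000152) and 5.65 ± 0.86 in late ones (0.000193). Tubb2b was 6.63 ± 1.00 higher in early (0.000352) and 5.27 ± 0.93 in late organoids (0.00072). Tubb2a was 4.42 ± 1.25 higher in early (0.0198) and 4.14 ± 1.14 in late organoids (0.0151).

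The Tubb2a calls rested on few libraries. Without epidermis replicate 1, 2 or 3 its adjusted p against early organoids was 0.0761, 0.0718 and 0.051, and without early replicate 1 it was 0.0852. Against late organoids it was 0.0739 and 0.0718 without epidermis replicates 1 and 2, and with only late replicates 1 to 3 the log2 difference was 0.92 (adjusted p = 0.29). Against mixed follicles it was 0.0568 and 0.0537 without epidermis replicates 1 and 2. Tubb3, described only, was 7.99 ± 1.37 higher in early and 3.76 ± 1.55 higher in late organoids than in epidermis. With only late replicates 1 to 3 the late value was 0.99 ± 1.5, and without epidermis replicate 1, which holds the single count, the values were 10.65 and 6.42. From summed counts those ratios were 247 (95% counting interval 44.1 to 9751) and 11.2 (1.90 to 453).

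Tubb4b and Tubb5 did not pass edgeR's test against epidermis. Tubb4b differed by -0.17 ± 0.66 in early organoids (edgeR adjusted p = 0.905) and by -0.81 ± 0.50 in late ones (0.267). Tubb5 differed by -0.16 ± 0.67 in early (0.912) and 1.42 ± 0.55 in late organoids (0.0746). In late organoids DESeq2 called Tubb5 higher, by 1.45 ± 0.51 (adjusted p = 0.0252), and edgeR did so without late replicate 4, with 1.602 ± 0.51 (0.0308). Mitosis genes were higher for 9 of 15 in late and 4 of 15 in early organoids, with list medians of 2.70 and 2.16 on the log2 scale against 0.04 and 0.02 for all genes. Ube2c, which drives exit from mitosis, was 3.78 ± 0.74 higher in late organoids (adjusted p = 0.00159). Tuba1c was higher in both, by 2.13 ± 0.46 in early (0.00387) and 1.98 ± 0.39 in late organoids (0.00171).

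**Figure D4:**
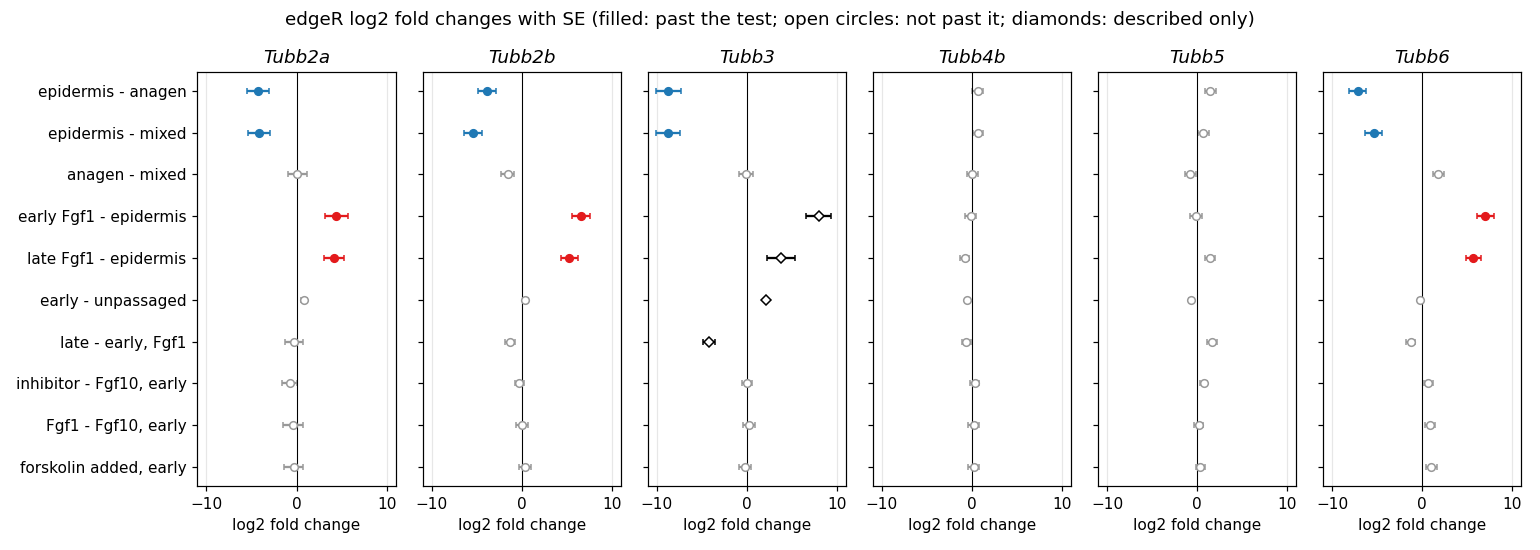
edgeR log2 fold changes (x axis) with standard errors, worked back from the test's F statistic, for each gene in 10 comparisons (y axis, first group minus second). Filled points pass the adjusted threshold, open circles do not, and diamonds are described without a test. Tubb4b and Tubb5 have no filled point, and Tubb2a, Tubb2b and Tubb6 are filled in the 4 comparisons with epidermis.

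By the pattern of its 13 group means, Tubb3 was closest among its family to Tubb2a. Pearson's r of log2(CPM + 1) with Tubb3 was 0.82 for Tubb2a, 0.66 for Tubb6, 0.60 for Tubb2b, -0.20 for Tubb4b and -0.56 for Tubb5. Among themselves Tubb2a and Tubb2b had 0.88, Tubb2b and Tubb6 0.86, and Tubb2a and Tubb6 0.84. These are descriptions over 13 means, some of which share source tables.

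Of 7588 genes with a mean of at least 10 CPM, 7353 were ranked by r to Tubb3. Predicted, clone-named, pseudogene and accession-like names were dropped first. The 8 genes with the highest r were led by Cdsn (0.92), which encodes the corneodesmosome protein of the outermost epidermis, and Crct1 (0.92). They were followed by the carboxypeptidase Cpa4 (0.91), the autophagy protein gene Gabarap (0.90), Gsdma (0.90), Cln8 (0.90), the cornified envelope precursor Sprr1a (0.90) and Rhou (0.89). Cdsn measured 11.1 to 17.03 CPM in epidermis, 762 to 975.4 CPM in anagen follicles, 728 to 1218 CPM in early Fgf10 organoids and 0 to 527 CPM in late ones. Its unpassaged libraries had 150 CPM in Fgf10, 158 in Fgf1 and 513 in inhibitor medium, below every early library of the same medium. In forskolin-inhibitor medium its unpassaged 672 CPM lay inside the early range of 146 to 1087 CPM, unlike Tubb3. Cpa4 had 0 counts in all 3 epidermis libraries, which allows up to 1.71 CPM over the group, and 0 to 22.1 CPM in late organoids, against 122 to 312 CPM in early Fgf10 organoids. With single libraries in place of group means, 4 of these 8 genes stayed among the first 8, while Cdsn, Crct1, Gsdma and Rhou went to ranks 26, 38, 77 and 88.

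**Figure D5:**
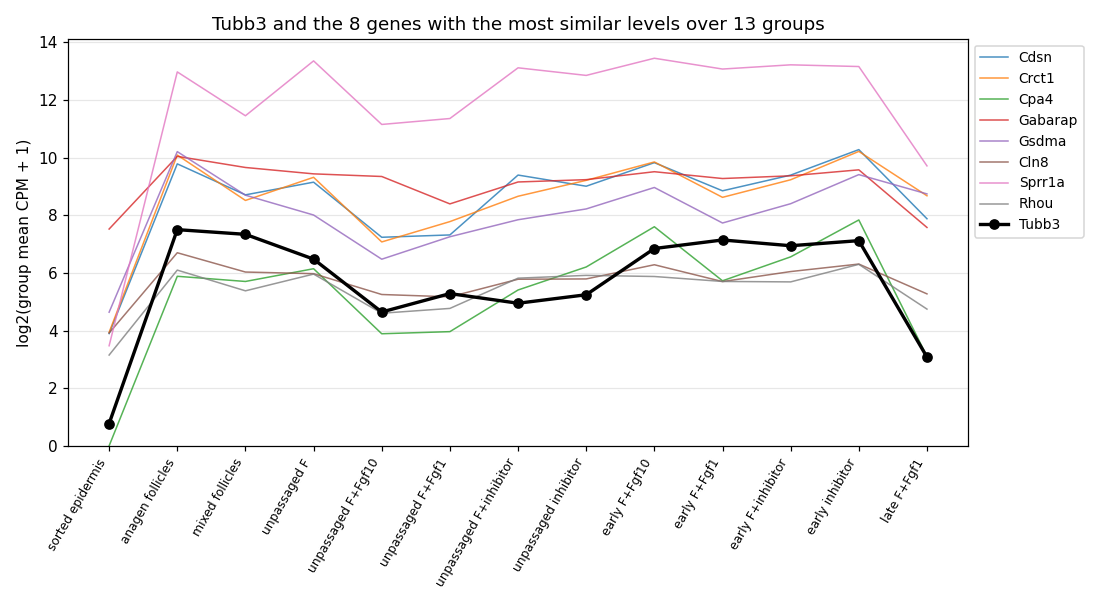
Group means as log2(mean CPM + 1) (y axis) over 13 groups (x axis, with F for forskolin) for Tubb3 (thick line) and the 8 ranked genes with the highest Pearson's r to it. Tubb3 averages 0.709 CPM in sorted epidermis, 7.46 CPM in late organoids and 114 to 140.3 CPM in the 4 early groups.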

How the data were processed

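Bulk CEL-seq2 RNA counts of 32 mouse skin and organoid libraries were used. Per the labels' protocols, cells or tissue were taken up in Trizol and libraries sequenced paired-end on a NextSeq500. The deposited values are whole-number counts per gene, for which the submitters' processing notes name BWA 0.6.2-r126 and mm10. Which counter and gene models the authors used, and whether molecular identifiers were collapsed, is not given in the sources used here. All 14 spike-in names were left out, a gene missing from a file was taken as 0, and printed levels are CPM on library totals. Totals of 412582 to 3351435 counts limit the precision of low genes, and 3 counts is the floor for a gene at 0.

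The fits used edgeR 4.0.16 (TMM, filterByExpr with minimum count 10 and total 15, quasi-likelihood test, threshold 0.05 on the adjusted p) in R 4.3.3: passaging (16 libraries, medium as a term), organoids (18) and tissue (17). The tests were checked on simulated data. The alternatives, given in the closing section, were DESeq2 1.42.0, other scalings, no filter, fits on only the groups compared, thinning to equal depth, a source-table term, a replicate block and each library left out. Replicate numbers did not consistently pair the samples. Members and gene lists were chosen with earlier results of these data known. From each list at most 3 called genes with the smallest adjusted p were to be named. Likeness to Tubb3 was Pearson's r of log2(CPM + 1) over 13 group means, for 7588 genes with a mean of at least 10 CPM. The first 8 of the 7353 left without predicted, clone-named, pseudogene and accession-like names were named. The unpassaged library in forskolin alone has no early partner and entered no comparison. Sequences came from GENCODE M21 and RefSeq tables.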

Additional observations from a re-analysis of the deposited data

Results flagged for a closer look

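Tubb3 in early Fgf10 replicate 4 was 81.7 CPM, far below the 123 to 126.4 CPM of the other 3 libraries: its gap was 0.928 of the group's range, past the critical 0.829. This was 1 of 18 sets of values looked at, each being 1 gene in 1 group of at least 4 libraries, and chance flags about 1 in 20.

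The unpassaged library grown in forskolin alone entered no comparison, and 4 members were higher there than in any of the other 4 unpassaged libraries. Tubb2a was 944 CPM against at most 384 CPM. Tubb2b was 363 CPM against at most 160.4 CPM. Tubb3 was 88.1 CPM against at most 37.9 CPM. Tubb6 was 295.6 CPM against at most 284 CPM. These are single libraries, and the differences were not tested.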

How the results depend on the processing

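No called value changed sign. Of the 1121 values of single members under alternatives 1025 kept direction and side of the threshold, 43 that were called in neither fit changed sign (main values of at most 0.62 in size), 36 gained a call, 12 lost one and 5 moved. Against 0 members called with passaging, DESeq2, library totals alone and no filter each called 2, and leaving out 1 library called 0 to 2. Against 0 for late and early organoids, DESeq2 called 1, late replicates 1 to 3 alone 4, the replicate block 2, and leaving out 1 library 0 to 1. Anagen against mixed follicles went from 0 to 1 (Tubb6) without the filter. The cause was not tested. The passaging counts above 0 without 1 library were Tubb2a and Tubb5 without early forskolin-inhibitor replicate 1, Tubb5 without its replicate 3 or the unpassaged library of that medium, and Tubb4b without early Fgf10 replicate 1 or the unpassaged Fgf1 library. Same-numbered samples did not consistently deviate together (correlations -0.17 to 0.45). The highest was for replicate 1 of early Fgf1 and Fgf10 organoids, which share a source table. In epidermis and mixed follicles each number matched its own best, at correlations of about 0.02. The numbers were therefore not taken as pairing. Under the replicate block Tubb2a in late organoids against epidermis was 0.74 (edgeR adjusted p = 0.35), where late replicates 1 to 3 alone carry the fit. Thinning libraries to equal depth ended the call of Tubb2b in epidermis against anagen follicles (adjusted p = 0.0619). Library totals in place of TMM moved the median log2 fold change of all genes by 1.00 in epidermis against mixed follicles (share of calls that were higher 39.1% to 77.7%), 0.43 against anagen (43.4% to 61.9%), 0.55 in anagen against mixed (18.2% to 42.7%), -0.25 in early organoids against epidermis (52.1% to 37.7%), -0.16 in late organoids against epidermis, 0.11 for inhibitor against Fgf10 and -0.13 with passaging (44.8% to 26.1%). Upper-quartile scaling gave 52.6% and 54.1% in epidermis against mixed and anagen follicles. Counts over all genes moved more: passaging from 1136 to 96 with the block, 8 with the source table, 421 thinned, and 212 and 431 without the unpassaged Fgf10 and inhibitor libraries. Late against early went from 667 to 1117 (DESeq2), 2037 (late 1 to 3), 1 (only these groups), 98 (thinned), 84 and 51 without either early library and 1091 without late replicate 4. Early against epidermis went from 2103 to 3387 (only these groups), 573 (thinned), 924 and 826 without either early library and 1227 to 1388 without an epidermis library. Late against epidermis went from 2361 to 1376 (only these groups), 834 (thinned) and 1296 to 1527 without an epidermis library. Thinning gave 1521 of 3708, 1279 of 3286 and 189 of 719 in the follicle comparisons, the last also 398, 418 and 458 without anagen 2, mixed 2 or mixed 3. Among media, Fgf1 against Fgf10 went from 0 to 3 to 43, forskolin added from 0 to 5 to 33, the interaction from 3 to 0 to 103, and inhibitor against Fgf10 from 57 to 2 to 179.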
